A study of Mus musculus with 11 samples.

Results

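The transcription factors of multipotent blood progenitors formed a set of 9 genes, Meis1, Mef2c, Lmo2, Hhex, Bcl11a, Spi1, Erg, Gfi1b and Cebpa, out of 21938 protein-coding genes in the annotation. They were described through the ATAC-seq peaks that overlapped each gene body extended by 20 kb on each side, here called its window. The 9 windows together spanned 1064 kb and held 100 of the 71400 intervals made by merging the peaks of all libraries that shared at least 1 bp. The list of genes was given by name and its rule did not use their peaks, but it was chosen with earlier results of these data known.

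ATAC-seq measures accessible chromatin by the insertions of a transposase, and was carried out on sorted cells of C57BL/6 mice a few weeks old. Common lymphoid progenitors (CLP, 3 libraries) and innate lymphoid cell precursors (ILCP, 2 libraries) came from bone marrow, and CD4 single positive thymocytes (CD4SP, 2 libraries) and natural killer T thymocytes (NKT, 2 libraries) came from thymus. No group carried a treatment or a deletion. CLP were sorted as lineage-negative cells with IL-7Rα, high Flt3 and intermediate cKit and Sca-1, ILCP as lineage-negative cells with IL-7Rα, α4β7 and a GFP reporter of Zbtb16 (the gene of PLZF), so that the ILCP group carried the reporter allele, and NKT cells with the CD1d-αGalCer tetramer. The libraries of a group were biological replicates, and the sources used here do not say whether cells of several mice were pooled.

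The series compared NKT with CD4SP in the thymus and ILCP with CLP in the bone marrow, in each case a cell type that expresses PLZF with one that does not. The libraries held between 19343 and 41535 peaks. CLP replicate 1 held the fewest and stood apart from CLP replicates 2 (41535) and 3 (40136), which shared 99.1% and 98.8% of its intervals. Peaks were called in each library separately and the files give no read depth, so the lack of a peak says only that the caller made none, and the part of depth in any difference was not tested. Of 7 T lineage markers (among them Cd3e, Lck and Cd4), 6 to 7 had a peak at the start site in the thymic libraries and 1 to 3 in the bone marrow libraries. Of 6 CLP markers (among them Flt3, Kit and Rag1), 4 to 6 had one in CLP, 3 to 4 in ILCP and 1 to 2 in the thymic libraries. By peaks summed over their windows the CLP markers did not separate the cell types, with 20, 36 and 36 in CLP, 21 and 15 in ILCP, 33 and 32 in CD4SP and 25 and 27 in NKT. Myeloid markers, 6 in all, had a peak at 0 to 2 start sites in every library, and 4 erythroid markers at 1 to 2. Of 5 ILCP markers, 4 to 5 had one in every library, so this list did not separate the cell types. Of 4 NKT markers, 2 to 3 had one in NKT and 0 to 1 elsewhere, and of 5 B lineage markers 1 to 2 had one in every library.

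Stem and multipotent progenitor cells of the blood express a group of factors that keep several lineages within reach. Meis1 is a homeodomain partner of Hox and Pbx proteins, Erg is an ETS factor of stem cells, and Lmo2 is the bridging subunit of the complex formed with Tal1 and GATA factors. Spi1 encodes PU.1, which directs myeloid and early B cell fates by its dose, and Cebpa encodes the C/EBP factor of granulocyte and monocyte commitment. Gfi1b is a transcriptional repressor needed in the erythroid and megakaryocyte lineages. Mef2c, Bcl11a and Hhex are needed for the lymphoid branch at or before the CLP. Most of these genes are shut down as T cells commit, and regulatory elements in their introns and far upstream are known to act in progenitors.

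Summed over the 9 windows, more peaks were called in bone marrow than in thymus. Of the mean difference of 23.2 peaks, Meis1 gave 12.5, Bcl11a 5.65 and Cebpa 2.65. Mef2c, Lmo2 and Gfi1b gave 1 to 1.75 each, and Hhex (-0.65), Spi1 (-0.2) and Erg (-0.65) went the other way. CLP replicates 1, 2 and 3 had 33, 71 and 74 peaks and the ILCP libraries had 47 and 46. The CD4SP libraries had 24 and 31 peaks and the NKT libraries had 32 and 37. CLP replicate 1, with the smallest peak list, lay between the 2 NKT libraries, and all other bone marrow libraries lay above all thymic libraries. The means were 59.3 ± 22.9 in CLP (SD, n = 3), 46.5 ± 0.707 in ILCP (n = 2), 27.5 ± 4.95 in CD4SP (n = 2) and 34.5 ± 3.54 in NKT (n = 2).

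Set against the size of each peak list, the libraries of one tissue came close together. Per 10,000 peaks of the library, the windows held 17.1, 17.1 and 18.4 peaks in CLP and 17.9 and 17.8 in ILCP. They held 7.13 and 8.18 in CD4SP and 9.22 and 9.54 in NKT. On this scale bone marrow (17.7 ± 0.582, n = 5) and thymus (8.52 ± 1.09, n = 4) did not overlap, while the mean of CLP (17.5 ± 0.785) minus that of ILCP (17.9 ± 0.00155) was -0.32 peaks per 10,000, within the spread between the CLP libraries. In plain numbers the same difference was 12.8 peaks.

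**Figure D1:**
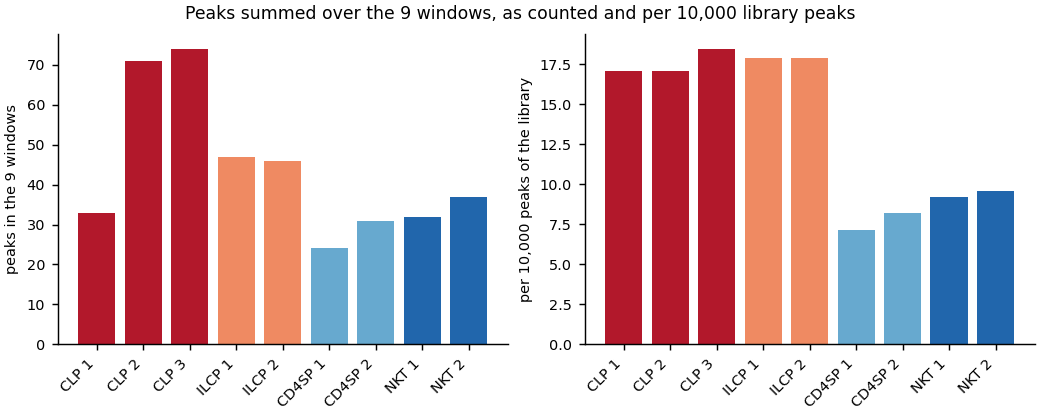
Peaks summed over the 9 windows in each library (left, number of peaks) and the same sum per 10,000 peaks of that library (right). CLP replicate 1 has 33 peaks against 71 and 74 in the other CLP libraries, but all 5 bone marrow libraries lie between 17.1 and 18.4 per 10,000 and all 4 thymic libraries between 7.13 and 9.54.

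By interval, 63 of the 100 intervals were open in at least 1 bone marrow library and in no thymic library, where 33.6% of all 71400 intervals were. Only 12 were open in a thymic and in no bone marrow library, against 27% of all intervals, and 10 were open in all 9 libraries, against 13.3%. Of the 63 intervals of bone marrow only, 7 were open in all 5 bone marrow libraries, 4 of them in Meis1. The rest lacked a peak in at least 1 bone marrow library. The share of all intervals open in all 5 and in no thymic library was not computed. Cut to the 19343 highest-scoring peaks of each library, an alternative added after seeing the data, the windows held 59 intervals, of which 40 (67.8%, 37.5% of all intervals) were open in bone marrow only and 5 (8.47%, 22.9% of all) in thymus only. The same split was seen with any library left out, with 59 to 65 intervals of bone marrow only and 10 to 14 of thymus only. Most of the intervals lay inside the genes, 64 of 100 with their midpoint in an intron of the principal transcript and 5 in an exon, with 19 upstream and 12 downstream.

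By gene, Meis1, Bcl11a and Cebpa had more peaks in every bone marrow than in every thymic library, 3 of 9 members where 3.54% of all genes with a peak did, and no member had more in every thymic library (12.8% of all genes). Mef2c joined them per 10,000 peaks and stood in place of Cebpa with equal numbers of peaks, and the number was 2 with the higher-scoring 50% of peaks, with windows of 5 kb, with the gene body alone and by base pairs covered. The difference between the mean of 5 bone marrow and 4 thymic libraries was positive for 6 members, and its median over the 9 was 1.15 peaks, against -0.45 over all 17731 genes. After adjustment over all genes no gene passed 0.05 in the exact permutation test of the library labels (two-sided, Benjamini-Hochberg), although 5455 genes (30.8%) had an unadjusted p at or under 0.05. The smallest p that 5 against 4 libraries allow is 0.00794.

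**Figure D2:**
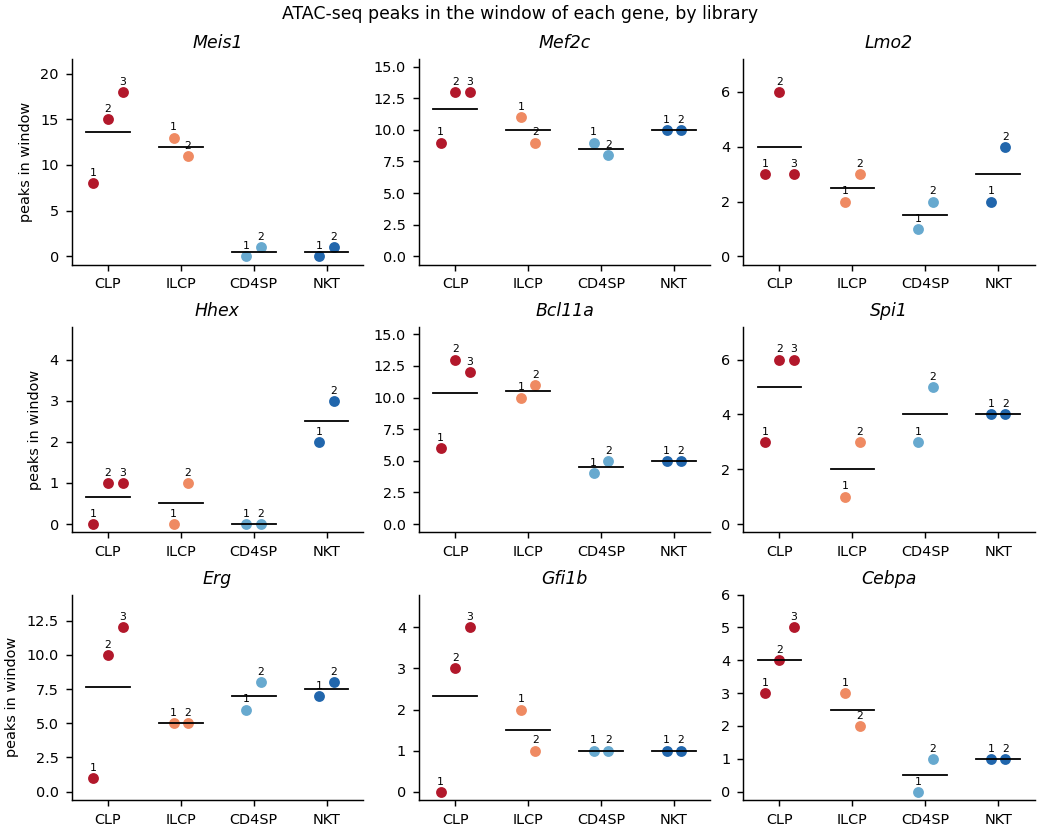
Number of ATAC-seq peaks in the window of each of the 9 genes (y axis) in the libraries of CLP, ILCP, CD4SP and NKT (points, numbered by replicate; black lines are group means). Meis1 runs from 8 to 18 in bone marrow and from 0 to 1 in thymus, Bcl11a and Cebpa are also separate by tissue, and in most panels CLP replicate 1 is the lowest CLP library.

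Meis1 showed the widest gap between the tissues. Its window held 8, 15 and 18 peaks in CLP and 13 and 11 in ILCP, against 0 and 1 in CD4SP and 0 and 1 in NKT. Every bone marrow library lay above every thymic library, and the means differed by 12.5 peaks (13 ± 3.81 against 0.5 ± 0.577, exact permutation p = 0.00794, adjusted p = 0.0618). Per 10,000 peaks the difference was 4.16, with an adjusted p of 0.0495 in the same exact test. That value belongs to the smallest p the libraries allow, and Meis1, Bcl11a and Cebpa share it with 16% of all genes, 5.01% of all genes being higher in bone marrow. Of 17731 genes, 99.98% had a smaller difference, although long windows can hold more peaks and the Meis1 window is 179 kb long. Of its 20 intervals, 19 were open in bone marrow only, and the remaining one, 61.2 kb downstream of the start site in intron 7 of 11, was the only interval with a thymic peak, in CD4SP replicate 2 and NKT replicate 2.

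The score of a peak is not defined in the sources used here, and a higher score was taken as a stronger peak. Where a peak stood in its library is given below as its rank from the highest score, in percent of the peaks of that library, with tied peaks sharing the lowest rank number. The lists differ in length, so these percents compare places within lists.

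The start site of Meis1 (ENSMUSG00000020160.18, minus strand, position 19018969 of chromosome 11 in mm10) lay in an interval of 3950 bp that was open in all 5 bone marrow libraries and in no thymic library. In CLP replicates 2 and 3 its best peak ranked 116 and 104 in the whole library, or 0.279% and 0.259%, which it shared with the 1265 and 1152 peaks tied at a score of 3100. In CLP replicate 1 it lay within the highest 19.2%, and in ILCP within the highest 23.4% and 21.3%. The peaks covered 3765 and 3949 bp in CLP replicates 2 and 3, and 1859 and 1891 bp in ILCP. The 250 bases before the RefSeq start, which lie inside this interval, are shown with the matches to the motifs searched in capitals.

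Meis1 promoter, chr11:19018970-19019219, minus strand: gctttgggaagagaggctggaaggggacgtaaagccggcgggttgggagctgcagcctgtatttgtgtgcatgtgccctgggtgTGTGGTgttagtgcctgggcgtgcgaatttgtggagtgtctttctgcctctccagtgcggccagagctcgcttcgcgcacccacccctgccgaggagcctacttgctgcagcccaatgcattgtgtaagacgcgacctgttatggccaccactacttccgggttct

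The motifs, searched on both strands, were GAGGAAGT (the PU.1 type of ETS site), the Runx letters TGTGGT, the GATA letters AGATAA, the E-box CAGNTG, the C/EBP letters TTGCNNAA and the Meis letters TGACAG. The Meis1 promoter held the Runx letters at bases 85 to 90, as did 14.0% of 32851 RefSeq promoters over the same 250 bases. A stretch can match more than 1 motif, and each match was counted for itself. A match is a description of the letters and does not show that a factor was bound.

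Of the 20 Meis1 intervals, 1 was specific to CLP against ILCP and 2 to ILCP against CLP, that is, open in every library of one type and in none of the other (8.18% and 8.67% of all intervals open in either type were). An interval in intron 7 of 11, 48.8 kb downstream of the start site, was open in all 3 CLP libraries (within the highest 40.9%, 24.7% and 25.5%) and in no other library. Intervals 20.1 kb (intron 6 of 11) and 73.3 kb (intron 7 of 11) downstream were open in the 2 ILCP libraries alone, within the highest 30.0% and 33.0% for the nearer and 62.5% and 49.5% for the farther. The interval 94.0 kb downstream, in intron 8, had the lowest mean percent over the 3 CLP libraries away from the start (17.4%, 8.65% and 11.1%) and was also open in ILCP (37.8% and 34.3%). An interval 142 kb from the start, beyond the 3′ end, stood higher in CLP replicates 2 and 3 (0.279% and 3.84%) but lower in CLP replicate 1 (38.3%), and was open in ILCP replicate 1 (57.8%). The interval 69.9 kb downstream ranked higher in ILCP (17.7% and 15.1%) than in CLP (70.3%, 37.2% and 34.9%). The central 200 bp of the CLP interval in intron 7 are shown because, of the Meis1 intervals without an ILCP peak, it alone was open in all 3 CLP libraries. A further 4 such intervals were open in CLP replicates 2 and 3 and 2 in CLP replicate 3.

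Meis1 intron 7, chr11:18970112-18970311, plus strand: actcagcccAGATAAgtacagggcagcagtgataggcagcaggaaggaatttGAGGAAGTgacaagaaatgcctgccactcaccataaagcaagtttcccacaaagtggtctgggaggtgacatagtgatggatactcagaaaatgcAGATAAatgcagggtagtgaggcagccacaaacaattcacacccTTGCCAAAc

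The capitals mark the GATA letters at bases 10 to 15 and 148 to 153, the PU.1 type of ETS site at bases 53 to 60 and the C/EBP letters at bases 192 to 199. The ETS letters occurred in the central 200 bp of 9 of the 100 intervals and in 5.68% of all 71400, the GATA letters in 10 and in 9.73% of all, and the C/EBP letters in 7 and in 7.54% of all. The Runx letters occurred in 26 (25.1% of all), the E-box in 49 (45.3% of all) and the Meis letters in 10 (16.8% of all).

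Bcl11a, a zinc finger repressor of fetal globin genes that lymphoid progenitors require, had 6, 13 and 12 peaks in CLP, 10 and 11 in ILCP, 4 and 5 in CD4SP, and 5 in each NKT library. The bone marrow and thymic libraries did not overlap, and the means differed by 5.65 peaks (exact permutation p = 0.0159, adjusted p = 0.103), or by 2.15 per 10,000 peaks (adjusted p = 0.0495). Of its 16 intervals, 14 were open in bone marrow only and the other 2 in all 9 libraries. One of those 2 was the start site interval, 8856 bp wide within 1 kb of the start of the neighbouring gene A830031A19Rik. Its peaks covered 8635 and 8850 bp in CLP replicates 2 and 3, 3263 bp in CLP replicate 1, 4055 and 4839 bp in ILCP and 2697 to 4679 bp in the thymic libraries.

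The second Bcl11a interval open everywhere, 53.5 kb downstream in intron 2 of 3, ranked higher outside CLP. It lay within the highest 4.11% and 3.70% in ILCP and 10.8% to 16.4% in the thymic libraries, against 68.0%, 29.1% and 26.5% in CLP. About 10 kb farther into the same intron, 63.9 kb downstream, an interval was open in all 3 CLP libraries (43.8%, 17.8% and 20.9%) and in no other library. An interval between them, at 58.1 kb, was open in the 2 ILCP libraries alone, within the highest 73.9% and 73.2%. Downstream of the gene, at 107 kb, an interval stood highest in all 3 CLP libraries away from the start (18.4%, 14.5% and 14.0%) and low in ILCP (96.5% and 92.8%). The CLP element in intron 2 is shown, with an E-box at bases 171 to 176 in capitals.

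Bcl11a intron 2, chr11:24141960-24142159, plus strand: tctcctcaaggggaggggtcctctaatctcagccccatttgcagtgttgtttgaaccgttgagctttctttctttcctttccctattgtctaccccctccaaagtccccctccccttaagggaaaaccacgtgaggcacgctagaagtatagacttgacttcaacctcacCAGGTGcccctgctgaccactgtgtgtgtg

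Cebpa, a gene of 1 exon, had 3, 4 and 5 peaks in CLP, 3 and 2 in ILCP, 0 and 1 in CD4SP and 1 in each NKT library. Bone marrow lay above thymus in every library, with means that differed by 2.65 peaks (exact permutation p = 0.0159, adjusted p = 0.103), or by 0.933 per 10,000 peaks (adjusted p = 0.0495). CLP exceeded the mean of the other 3 cell types by 2.67 peaks (exact permutation p = 0.0238, adjusted p = 0.543), and its lowest library was level with the highest ILCP library. The start site interval was open in 8 of the 9 libraries. It lay within the highest 19.4%, 4.0% and 5.29% in CLP and 30.1% and 38.6% in ILCP, and within 92.6% in CD4SP replicate 2 and 53.0% and 23.6% in NKT. So the promoter of this myeloid factor was called open in NKT and in CD4SP replicate 2 as well as in the progenitors.

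The other 3 Cebpa intervals were open in bone marrow only. The interval 5.65 kb downstream was open in all 5 bone marrow libraries, within the highest 63.5%, 32.8% and 33.6% in CLP and 93.0% and 89.6% in ILCP. The interval 20.1 kb upstream overlapped the edge of the window, and its middle, with the bases shown, lay outside the window. It was open in all 3 CLP libraries (56.2%, 17.1% and 15.7%) and in no other. It is shown with the promoter, since the 2 elements differ in where they were open. The upstream element held an E-box at bases 11 to 16, and the promoter, of 66.4% G and C, held no match to any of the 6 motifs.

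Cebpa upstream, chr7:35099057-35099256, plus strand: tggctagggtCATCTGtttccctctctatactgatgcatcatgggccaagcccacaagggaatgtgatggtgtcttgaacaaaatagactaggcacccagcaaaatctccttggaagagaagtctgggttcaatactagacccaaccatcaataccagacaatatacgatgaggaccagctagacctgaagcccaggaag
Cebpa promoter, chr7:35119043-35119292, plus strand: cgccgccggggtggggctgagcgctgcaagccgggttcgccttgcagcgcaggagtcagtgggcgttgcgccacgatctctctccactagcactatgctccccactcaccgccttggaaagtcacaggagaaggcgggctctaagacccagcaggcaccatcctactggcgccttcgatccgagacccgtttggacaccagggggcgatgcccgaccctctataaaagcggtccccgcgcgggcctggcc

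Spi1 was the member whose start site separated CLP from every other cell type. The interval within 1 kb of its principal start (position 91096096 of chromosome 2, plus strand) began just downstream of it, at 91096228. It was open in all 3 CLP libraries, within the highest 55.0%, 31.7% and 27.2% of scores, and in no ILCP, CD4SP or NKT library. It covered 950, 1247 and 1211 bp in the CLP libraries. By number of peaks the window did not separate the groups, with 3, 6 and 6 in CLP, 1 and 3 in ILCP, 3 and 5 in CD4SP and 4 in each NKT library. CLP and ILCP differed by 3 peaks (exact permutation p = 0.3, adjusted p = 0.800), where the smallest p that 3 against 2 libraries allow is 0.1.

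An interval 13.1 kb upstream of the Spi1 start, near the known upstream regulatory element through which PU.1 sustains its own gene, was open in 8 of 9 libraries with ranks that differed by cell type. It lay within the highest 30.1%, 18.7% and 19.2% in CLP, within 94.4% in ILCP replicate 2 and in no peak of ILCP replicate 1. In CD4SP it lay within 90.7% and 95.1%, and in NKT within 78.9% and 70.0%, so all 6 libraries of the other types ranked it below every CLP library or lacked it. Its peaks covered 1146, 1880 and 1625 bp in CLP and 610 to 949 bp elsewhere. Spi1 transcripts outside the basic set of the annotation begin in this interval. An interval 5.52 kb downstream, in intron 2 of 4, had the opposite distribution, with a peak in all 4 thymic libraries (71.2% to 81.5%) and in no bone marrow library. The interval open in all 9 libraries, 25.7 kb upstream, lay over the start site of the neighbouring gene Slc39a13, a zinc transporter.

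**Figure D3:**
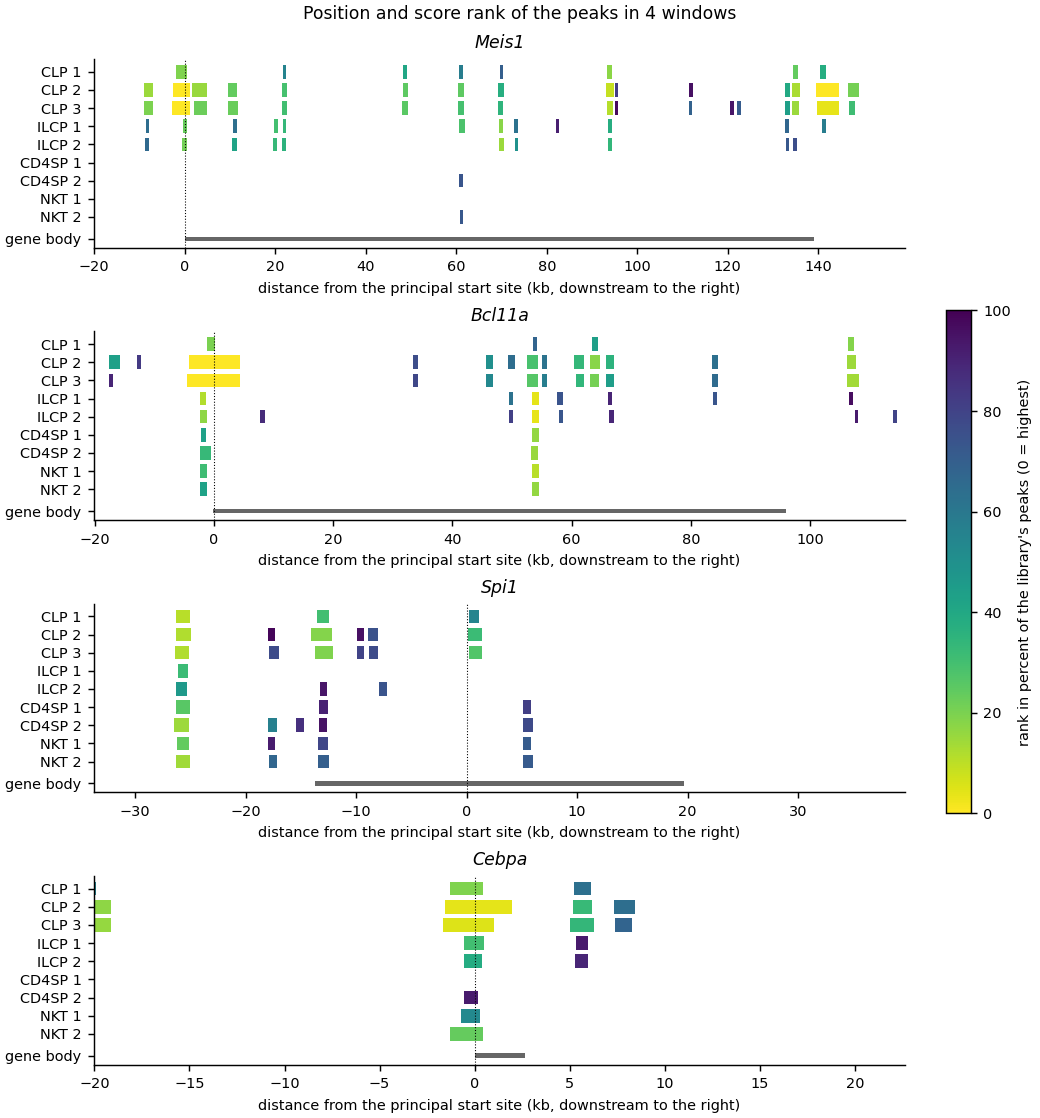
Peaks of each library (rows) by distance from the principal start site in kb (x axis) in the windows of Meis1, Bcl11a, Spi1 and Cebpa, with the highest-scoring peak of each interval drawn and coloured by its rank in percent of the library's peaks, ties sharing the lowest rank number, and the gene body in grey. Narrow peaks are drawn at a minimum width. The Meis1 rows of thymus hold 1 peak each in CD4SP 2 and NKT 2, the Spi1 start has peaks in the 3 CLP rows only, and the Bcl11a intron 2 interval at 53.5 kb is brighter outside CLP.

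Mef2c, a MADS-box factor that favours lymphoid over myeloid fate in progenitors, had between 8 and 13 peaks in all 9 libraries. Its window held 9, 13 and 13 peaks in CLP, 11 and 9 in ILCP, 9 and 8 in CD4SP and 10 in each NKT library. Bone marrow and thymus differed by 1.75 peaks (exact permutation p = 0.222, adjusted p = 0.415). Per 10,000 peaks they did not overlap, with 3.13 to 4.65 in bone marrow against 2.11 to 2.88 in thymus, and differed by 1.18 (exact permutation p = 0.0159, adjusted p = 0.0701). With 19343 peaks from every library the difference was 4.75 peaks (exact permutation p = 0.00794, adjusted p = 0.0521). Both NKT libraries lay above both CD4SP libraries, by 1.5 peaks on average (exact permutation p = 0.333, the smallest that 2 against 2 libraries allow). Of its 14 intervals, 6 were open in all 9 libraries, 4 in bone marrow only and 2 in thymus only.

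No library had a peak at the principal Mef2c start. The intervals at 20.7 and 69.4 kb lay over other annotated Mef2c starts. The 69.4 kb start lay within the highest 0.936%, 0.279% and 0.259% in CLP, 13.4% and 22.6% in ILCP, 13.2% and 22.0% in CD4SP and 9.69% and 33.9% in NKT. The 20.7 kb start had a peak in 8 of 9 libraries and none in CD4SP replicate 2. An intron 2 interval at 62.0 kb ranked higher in thymus (4.21% and 11.4% in CD4SP, 2.43% and 6.06% in NKT) than in CLP (36.8%, 25.2% and 17.0%) or ILCP (28.2% and 31.8%). The interval away from the starts that stood highest in CLP, 105 kb downstream in intron 4 of 10, lay within the highest 12.8% in every library and within 1.20% in NKT replicate 1. It is shown as an element of these genes that was open in all cell types, with E-boxes at bases 110 to 115 and 120 to 125.

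Mef2c intron 4, chr13:83609000-83609199, plus strand: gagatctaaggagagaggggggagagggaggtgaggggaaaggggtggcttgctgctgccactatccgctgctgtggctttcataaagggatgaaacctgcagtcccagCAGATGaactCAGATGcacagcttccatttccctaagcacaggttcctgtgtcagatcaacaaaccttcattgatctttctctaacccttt

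Lmo2 had few peaks, 3, 6 and 3 in CLP, 2 and 3 in ILCP, 1 and 2 in CD4SP and 2 and 4 in NKT, and all groups overlapped except CLP and CD4SP. The interval 12.4 kb upstream was open in all 9 libraries, within the highest 15.4% and 15.0% in CLP replicates 2 and 3 and 18.8% to 27.8% in the thymic libraries, but only 75.2% in CLP replicate 1 and 82.7% and 67.1% in ILCP. The principal start had no peak in any library. Another annotated start, at 12.0 kb, was open in CLP replicates 2 and 3 (30.8% and 27.4%) and in CD4SP replicate 2 (97.6%). An interval at 17.0 kb in intron 2 of 3 was open in both NKT libraries (40.6% and 54.2%) and in no other library of any type.

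Erg had 1, 10 and 12 peaks in CLP, 5 in each ILCP library, 6 and 8 in CD4SP and 7 and 8 in NKT, and CLP replicate 1 alone lay below all the others. Of its 22 intervals, 13 were open in bone marrow only, 5 in thymus only and 4 in libraries of both tissues, with none open in all 9 libraries. Those of thymus only included the last exon (33.2% to 60.0% in the thymic libraries) and an interval 189 kb from the start, beyond the 3′ end (42.2% to 49.5%), both open in all 4 thymic libraries. Of the 4 shared intervals, one at 156 kb from the start in intron 7 of 10 was open in all thymic and both ILCP libraries (96.8% and 70.5%) but in no CLP library. One other interval was open in both ILCP libraries and no CLP library, at 11.0 kb in intron 2, within 99.7% and 49.0%, so in ILCP replicate 1 it was near the lowest score of the list. Intervals at 114 and 187 kb had a peak in ILCP replicate 1 and in no other library. The principal start had no peak in any library, and an internal start at 71.3 kb was open in CLP replicates 2 and 3 only, within 34.2% and 61.6%. Another annotated start, 55.3 kb upstream, was open in libraries of both tissues. It had a peak in CLP replicate 3 (84.6%), CD4SP replicate 2 (84.4%) and NKT replicate 2 (81.2%).

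The only one of the 22 Erg intervals open in all 3 CLP libraries lay at 97.6 kb in intron 2 (65.5%, 36.3% and 35.2%) and was also open in ILCP replicate 2 (79.7%). An interval at 74.8 kb in the same intron stood higher in CLP replicate 2 (29.7%) and lower in replicate 3 (49.1%), with no peak in replicate 1. The central 200 bp of the 97.6 kb interval are shown, with E-boxes at bases 17 to 22 and 114 to 119, the GATA letters at bases 105 to 110 and the Runx letters at bases 181 to 186, all marked in capitals.

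Erg intron 2, chr16:95432690-95432889, plus strand: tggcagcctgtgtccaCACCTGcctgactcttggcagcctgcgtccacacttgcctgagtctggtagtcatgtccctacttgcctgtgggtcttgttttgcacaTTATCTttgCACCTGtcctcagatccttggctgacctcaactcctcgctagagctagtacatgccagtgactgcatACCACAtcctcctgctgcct

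Gfi1b had 0, 3 and 4 peaks in CLP, 2 and 1 in ILCP and 1 in each thymic library. The 1 thymic peak lay at the start of the neighbouring gene Tsc1, 19.1 kb upstream, so no peak of a thymic library lay elsewhere in this window. Its own start had a peak in CLP replicate 3 only (88.9%). The interval 15.8 kb from the start, downstream of the gene, was open in CLP replicates 2 and 3 (85.8% and 76.7%) and in both ILCP libraries (45.8% and 77.6%).

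Hhex, a homeodomain factor that lymphoid progenitors require, had 0, 1 and 1 peaks in CLP, 0 and 1 in ILCP, 0 in both CD4SP libraries and 2 and 3 in NKT. Mef2c and Hhex were the 2 members with more peaks in every NKT than in every CD4SP library, where 9.48% of all genes with a peak were, and no member had more in every CD4SP library (6.61% of all). The Hhex difference was 2.5 peaks (exact permutation p = 0.333, adjusted p = 1), and it was 0 when each library was limited to its best 19343 peaks, where that of Mef2c was 0.5. The interval over the Hhex start was open in both NKT libraries within the highest 78.0% and 67.7%, in CLP replicates 2 and 3 within 11.0% and 9.84%, and in ILCP replicate 2 within 80.6%. Its peaks covered 3194 and 3285 bp in those CLP libraries and 901 and 1819 bp in NKT. Thus the NKT peaks at this start were low in the list and the CLP peaks high, with no peak in CLP replicate 1.

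**Figure D4:**
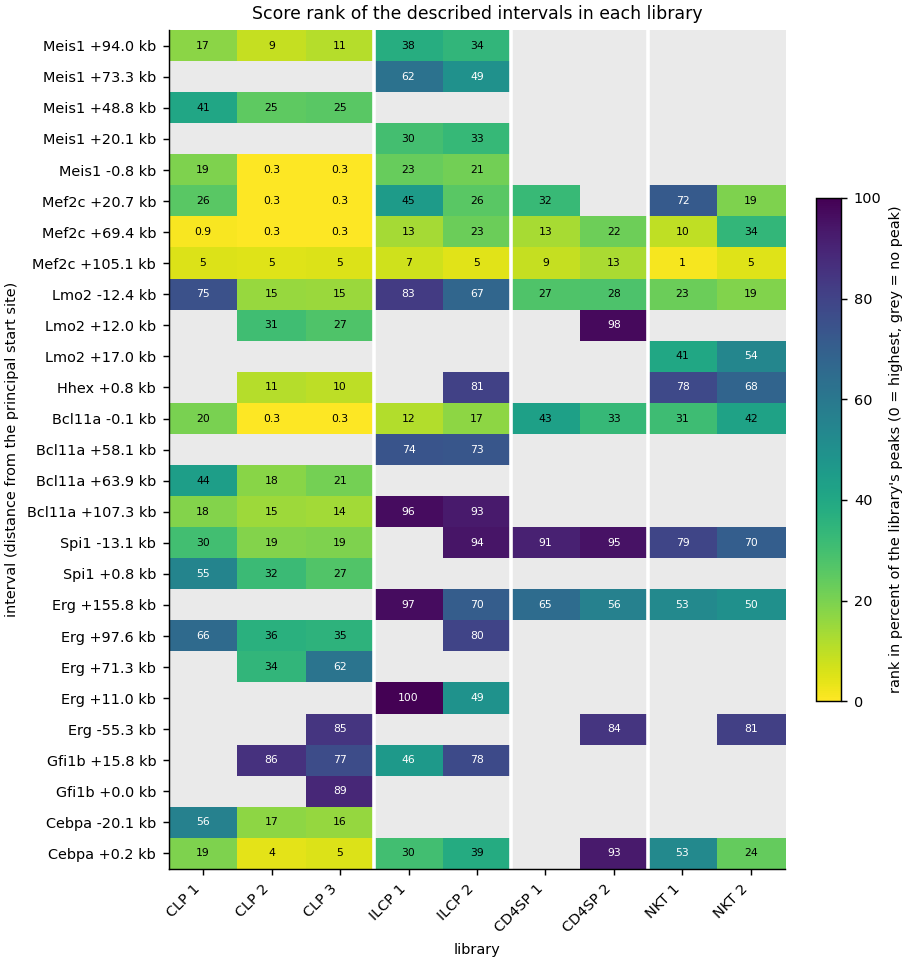
Rank of the best peak in percent of the library's peaks, with ties sharing the lowest rank number (number and colour; grey, no peak called), for the intervals over a start site, specific to a cell type, or with the lowest mean percent in CLP, named by gene and distance in kb from the principal start site (y axis), in the 9 libraries (x axis). The Meis1 rows are grey in all thymic libraries, the Spi1 start row is coloured in CLP only, and Mef2c at 105 kb lies within 12.8% in all 9 libraries.

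Between CLP and ILCP, few intervals were open in every replicate of one type and in none of the other. Of the 88 intervals open in either type, 4 (4.55%) were open in all CLP and no ILCP library, against 8.18% of all such intervals, 1 each in Meis1, Bcl11a, Spi1 and Cebpa. In the other direction 5 (5.68%) were open in both ILCP and no CLP library, against 8.67% of all, 2 each in Meis1 and Erg and 1 in Bcl11a. The ILCP count was 2 with 19343 peaks from every library, 1 with the higher-scoring 50%, and 9 and 8 without ILCP replicates 1 and 2. For ILCP the share of all intervals under these alternatives was not computed, so whether the members differed from it is not known. No member had more peaks in every CLP than in every ILCP library (10% of all genes did) or the reverse (4.69% did), and none had more in every CLP library than in every library of the other 3 types (2.25% did).

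The CLP counts rested on CLP replicate 1. Without it, 24 intervals (27.3%) were open in both remaining CLP and no ILCP library, against 30.5% of all intervals, and 7 of 9 members had more peaks in both CLP than in both ILCP libraries, against 48.0% of all genes. With 19343 peaks from every library, 9 intervals (16.7%) were specific to CLP, against 11.3% of all, and with the higher-scoring 50% of peaks 6 were (12.5%), against 7.81% of all. With 19343 peaks each, 3 members had more peaks in every CLP library, against 12.4% of all genes. With all libraries, 8 of 9 members had the higher mean in CLP, with a median difference of 1.5 peaks against 0.5 over all 17106 genes, and the lowest adjusted p was 0.800 (exact permutation test). The difference was -0.17 peaks for Bcl11a, and 2 without CLP replicate 1. The tally changed with the scale. Per 10,000 peaks, 4 members had the higher mean in CLP and 5 in ILCP, and with 19343 peaks from every library 6 had it in CLP and 2 in ILCP.

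Between NKT and CD4SP, 2 of the 37 intervals open in either (5.41%) were specific to NKT, against 6.48% of all such intervals, the Hhex start and the Lmo2 intron 2 interval. None of the 37 was specific to CD4SP, against 5.21% of all. The NKT count was 1 with 19343 peaks from every library and 0 with the higher-scoring 50%, and 6 without CD4SP replicate 2 or without NKT replicate 1. The CD4SP count was 2 without CD4SP replicate 1 and 1 without CD4SP replicate 2. Shares of all intervals under these alternatives were not computed, so the changed counts are no result about the members. The median difference between the cell types was 0.5 peaks over the 9 members and 0 over all 16515 genes, and 2 against 2 libraries cannot give an exact p under 0.333. A test of whether the ILCP minus CLP and NKT minus CD4SP differences of a gene differed gave exact permutation p between 0.15 and 1 for the 9 members.

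Other factors of blood progenitors and of the myeloid, erythroid and megakaryocyte lineages, 24 genes, were counted in the same way. Between bone marrow and thymus, 7 had the higher mean in bone marrow and 17 in thymus, with a median of -0.975 peaks, and 12 had an unadjusted exact permutation p at or under 0.05 (30.8% of all genes did) but none an adjusted one. Every bone marrow library was above every thymic one in 3 of them (3.54% of all genes) and below in 5 (12.8% of all). Mecom, a zinc finger factor of stem cells, had a pattern like that of Meis1, with 9, 23 and 21 peaks in CLP, 14 and 12 in ILCP and 0 in all thymic libraries (adjusted exact permutation p = 0.0618). Runx1, used from stem cells to T cells, went the other way, with 3, 11 and 10 peaks in CLP, 3 in each ILCP library, 13 in each CD4SP and 14 in each NKT library (adjusted exact permutation p = 0.124).

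Between CLP and ILCP, 17 of the 24 had the higher mean in CLP and 4 in ILCP, and 2 had more peaks in every CLP library (10% of all genes did), Etv6 and Cbfa2t3. Etv6, an ETS repressor needed by stem cells, had 11, 25 and 27 peaks in CLP, 10 and 9 in ILCP, 10 and 12 in CD4SP and 13 and 10 in NKT. Cbfa2t3, a corepressor that works with the Tal1 complex, had 3, 9 and 9 in CLP, 1 and 2 in ILCP, 2 and 6 in CD4SP and 4 and 5 in NKT. Tcf4, the E protein of plasmacytoid dendritic cells, had 4, 10 and 9 in CLP, 3 and 4 in ILCP, 13 and 14 in CD4SP and 9 and 10 in NKT. The adjusted p of all 24 in this comparison was at least 0.800 in the exact permutation test.

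The genes whose peaks per 10,000 followed the sum over the 9 members most closely, among 14004 genes with at least 10 peaks, were Epha7 (Pearson r = 0.992 over the 9 libraries), Zfp423 (0.991), Tcerg1l (0.988), Nfib (0.984) and Alkal1 (0.984). Nfib had 7, 13 and 13 peaks in CLP, 10 in each ILCP library, 1 in each CD4SP and 3 in each NKT library. The 9 libraries fall into 2 tissues, so these values describe mainly a shared difference between bone marrow and thymus.

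Peaks in the windows were wider than usual in CLP. Their median width was 950, 1328 and 1138 bp in CLP, against 874, 1035 and 1033 bp over all peaks of those libraries. In ILCP it was 813 and 809 bp against 820 and 813 bp, and in the thymic libraries 839 to 968 bp against 879 to 989 bp. By rank, the median peak in the windows lay within the highest 43.8%, 33.5% and 39.6% in CLP and 62.2% and 54.2% in ILCP, and within 51.9% to 62.1% in the thymic libraries.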

How the data were processed

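Peaks of 9 ATAC-seq libraries were analysed. Reads were aligned by the authors to mm10 with bowtie, and MACS was run on one library at a time. The submitters' processing notes also name Picard and HOMER. The deposited lists hold peak positions and a score of at least 120, which the sources used here do not define. It was used only to rank peaks within a library, a higher score being taken as a stronger peak, with the lowest rank number shared by ties. MACS version and settings, duplicate removal and any shift of read ends are not given in the sources used here. The study's methods state a range of read numbers over all its ATAC-seq libraries, but the depth of each library is unknown, so no counting interval could be given. A Runx1 chromatin immunoprecipitation library and its input were not analysed here.

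Overlapping peaks (1 bp or more) of all libraries gave 71400 intervals, called open in the libraries with a peak there. Intervals open in all libraries of a cell type and closed in all of the other were specific to it. Windows, exons and start sites came from GENCODE M21 (protein-coding genes, basic transcripts) and distances were counted from the principal transcript's start to the middle of the interval. Start sites had a peak when one lay within 1 kb. Promoters came from RefSeq (GRCm38.p6), with entries for 7 of the 9 genes (Spi1 and Lmo2 had none), other sequences from the GRCm38.p6 genome, read with pysam 0.24.0. Peak numbers were compared by two-sided exact permutation tests over the libraries, adjusted by the Benjamini-Hochberg method over all genes with a peak, in Python 3.11.15 with numpy 2.4.6, pandas 2.3.3 and matplotlib 3.10.9. The test and the classification were checked on simulated data. The groups and replicate numbers came from the sample labels.

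The 9 genes, the other lists and the tests were chosen with earlier results of these data known. Named were all 9 members, the 5 of 24 other progenitor factors with the largest difference between CLP and ILCP, the 5 genes of most similar pattern, and the intervals over a member's start site, specific to a cell type, or best ranked in CLP away from start sites (open in most CLP libraries, then lowest mean rank percent over them). Other intervals were named after their values were seen. Sequences are the central 200 bp of intervals best ranked in or specific to CLP, at most 1 per gene. Alternatives were equal numbers of peaks, the higher-scoring 50%, other windows and overlap rules, peaks per 10,000 or base pairs covered, replicate blocks and each library left out.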

Additional observations from a re-analysis of the deposited data

How the results depend on the processing

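The higher number of peaks in bone marrow than in thymus kept its direction under every alternative that was run (16.1 to 29.8 peaks under the others that count peaks, 18.3 to 28.5 with each library left out, against 23.2), and per 10,000 peaks the difference was 9.14 and the tissues no longer overlapped. The members with more peaks in every bone marrow than in every thymic library numbered 3 with any library left out, with equal numbers of peaks, with windows of 50 kb and without peaks near other gene starts, 4 per 10,000 peaks, and 2 with the higher-scoring 50%, with windows of 5 kb, with the gene body alone and by base pairs covered. With 19343 peaks per library, 40 of 59 intervals were of bone marrow only (67.8%, 37.5% of all intervals) and 5 of thymus only (8.47%, 22.9% of all). With the higher-scoring 50%, 36 of 54 were of bone marrow only (66.7%, 33.2% of all) and 6 of thymus only (11.1%, 27.2% of all). The comparison of CLP with ILCP depended on CLP replicate 1. CLP minus ILCP was -0.32 per 10,000 peaks in place of 12.8 peaks, and 26 peaks without CLP replicate 1, 7 without replicate 2 and 5.5 without replicate 3. Intervals specific to CLP numbered 9 with equal numbers of peaks, 7 with windows of 50 kb, 9 where peaks had to cover 50% of the interval, 38 when open in any replicate, 24 when 2 of 3 CLP libraries decided, and 4 to 24 with each library left out (24 without CLP replicate 1, 7 without either ILCP library). Those specific to ILCP numbered 2 with equal numbers, 1 with the higher-scoring 50%, 12 when open in any replicate and 5 to 9 with each library left out (9 and 8 without ILCP replicates 1 and 2). Members with more peaks in every CLP than in every ILCP library numbered 3 with equal numbers, 3 by base pairs covered, 1 with the higher-scoring 50%, with windows of 50 kb and per 10,000 peaks, and 0 to 7 with each library left out (7 without CLP replicate 1, 1 and 2 without ILCP replicates 1 and 2). Intervals specific to NKT numbered 1 with equal numbers, 0 with the higher-scoring 50%, 4 with windows of 50 kb, 7 when open in any replicate and 3 to 6 with each library left out (6 without CD4SP replicate 2 or NKT replicate 1). Those specific to CD4SP numbered 3 when open in any replicate and 0 to 2 with each library left out (2 and 1 without CD4SP replicates 1 and 2). NKT minus CD4SP was 2.5 peaks with the higher-scoring 50% and 6720.5 bp by base pairs covered, where the groups overlapped, against 7 peaks, and 3.5, 10.5, 9.5 and 4.5 peaks without CD4SP replicates 1 and 2 and NKT replicates 1 and 2. For specific intervals, the share over all intervals under the same setting was computed for CLP only. It covered equal numbers of peaks, the higher-scoring 50% and each library left out. Without CLP replicate 1 this share was 30.5%, against 8.18% with all libraries. The other counts of specific intervals have no such share beside them and are no result about the members. The causes of these changes were not tested.

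With equal numbers of peaks the Hhex difference between NKT and CD4SP was 0, against 2.5. For single genes, the sign changed in 27 cases, all of them without an adjusted p under 0.05. With equal numbers of peaks, CLP minus ILCP was 1.33 for Bcl11a, -0.33 for Erg and -0.17 for Gfi1b, bone marrow minus thymus was 0.4 for Hhex, 1.4 for Spi1 and -0.6 for Gfi1b, CLP minus the other cell types was 0.67 for Hhex, -0.67 for Erg and -0.5 for Gfi1b, and the difference of the differences was 0.17 for Gfi1b. That difference then had an exact permutation p of 0.05 for Bcl11a (-1.83) and 0.0167 for Cebpa (-3), not adjusted. With windows of 5 kb, bone marrow minus thymus was 0.9 for Erg and the difference of the differences was 0.5 for Bcl11a. Per 10,000 peaks, CLP minus ILCP was -0.53 for Meis1, -0.16 for Mef2c, -0.031 for Hhex and -0.00088 for Gfi1b, and bone marrow minus thymus was 0.11 for Spi1. With each library left out, CLP minus ILCP ran from -1.5 to 2 for Bcl11a, from -0.5 to 4.5 for Meis1 and from -0.33 to 0.67 for Hhex, bone marrow minus thymus from -2 to 0.75 for Erg and from -0.75 to 0.5 for Spi1, NKT minus CD4SP from -0.5 to 1.5 for Erg, and CLP minus the other cell types from -1 to 4.5 for Erg and from -0.53 to 0.067 for Hhex. The labels give the groups the same replicate numbers but do not pair the samples. With the numbers as a replicate block, CLP minus ILCP was 5.5 peaks over replicates 1 and 2 and NKT minus CD4SP was 7. Deviations of same-numbered libraries from their group means correlated at -0.042 and -0.0295 for CLP with ILCP (replicates 1 and 2) and at 0.485 for both pairs of CD4SP with NKT, across genes.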
